A study of Mus musculus with 10 samples.

Results

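The choroid plexus epithelium genes described here were Ttr, Folr1, Kl, Clic6, Aqp1, Kcne2, Slc4a5, Otx2, Cldn2 and Sostdc1, which are 10 of the 23458 genes named on a mouse expression array. They were chosen by their gene symbols and by their co-variation over the 10 hippocampus arrays of the study, so that co-variation is given as a description, with no test. Total RNA of the hippocampus of mice labelled as males of 12 weeks was hybridised to 1-colour (Cy3) arrays, with 5 arrays of PGC-1αf/f mice and 5 arrays of nPGC-1α mice. PGC-1αf/f mice carried a PGC-1α transgene at Rosa26 behind a floxed PGK-neo-STOP cassette, and nPGC-1α mice carried in addition the Eno2-Cre transgene, in which a neuronal promoter drives Cre recombinase. The comparison asked how neuronal overexpression of PGC-1α, a coactivator that turns on genes of mitochondria, changes hippocampal gene expression under basal conditions. Nothing in the labels ties an array to a separate animal, so p-values measure the spread between these samples.

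The choroid plexus is a folded epithelium that hangs into the brain ventricles and secretes most of the cerebrospinal fluid. Its cells move ions, water, folate and thyroid hormone between blood and fluid, are joined by leaky tight junctions, and keep the identity of a roof plate derivative through the homeobox factor Otx2. The plexus of the lateral ventricle lies along the fimbria, next to the hippocampus, but is not part of it. The samples are labelled as hippocampus and, by cell type, as neuron. Of the 10 choroid plexus genes, 7 had a probe well above background on every array. By probe these were 7 of 15, beside 29373 of 56605 probes over the whole array, so nothing is read from the count. All 10 markers of hippocampal neurons were well above background on every array where their spots were not marked as outliers. So were 8 of the 10 choroid plexus genes, and the share of all genes was not computed for this rule.

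Promoter sequences are shown for 3 genes that bear on the values below: Otx2, whose order over the arrays departed from that of the other genes, Kcne2, whose level spanned 62-fold over the arrays, and Kl, whose level spanned 3.84-fold. The sequences are from RefSeq (build GRCm38.p6), each with 250 bases before and 50 bases from the annotated start, and entries of 6 of the 10 genes, with 10 starts, matched by symbol. The Otx2 sequence is chr14:48665060-48665359 on the minus strand, 1 of 4 starts of the gene. The Kcne2 sequence is chr16:92292139-92292438 on the plus strand, and the Kl sequence is chr5:150952357-150952656 on the plus strand. Capitals mark TAATCC, the core bound by OTX-type homeodomain proteins, here read on the opposite strand as GGATTA, at position -211 from the start.
Otx2: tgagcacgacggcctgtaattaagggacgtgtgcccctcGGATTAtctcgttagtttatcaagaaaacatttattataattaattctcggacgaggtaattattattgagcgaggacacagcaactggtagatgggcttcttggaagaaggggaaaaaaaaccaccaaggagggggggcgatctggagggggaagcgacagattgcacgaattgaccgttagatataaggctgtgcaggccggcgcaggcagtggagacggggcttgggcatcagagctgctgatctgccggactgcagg
Kcne2: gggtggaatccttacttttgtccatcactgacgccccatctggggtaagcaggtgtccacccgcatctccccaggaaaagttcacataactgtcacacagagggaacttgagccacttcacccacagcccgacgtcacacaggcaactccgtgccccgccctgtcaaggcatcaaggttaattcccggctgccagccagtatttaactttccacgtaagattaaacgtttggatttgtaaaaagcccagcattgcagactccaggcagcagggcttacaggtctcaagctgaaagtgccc
Kl: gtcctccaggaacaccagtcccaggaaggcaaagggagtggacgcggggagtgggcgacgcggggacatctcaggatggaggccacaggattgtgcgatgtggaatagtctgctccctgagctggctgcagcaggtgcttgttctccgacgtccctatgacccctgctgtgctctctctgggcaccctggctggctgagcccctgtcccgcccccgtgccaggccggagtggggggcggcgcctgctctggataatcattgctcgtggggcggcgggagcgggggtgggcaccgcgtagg
TAATCC on either strand was in 1 of the 10 promoters, against 7.06% of 32851 promoters of the same length, and TGTTTAC, a forkhead core, was in 0 of 10 against 3.65%. The letters do not overlap between these motifs, and a match or its absence says nothing of binding.

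A level is the log2 of the processed fluorescence intensity minus the log2 of the 75th percentile of its array, so that 0 equals that percentile, and levels of different probes are not comparable. The 75th percentile of the processed intensity was 3883 to 5080 on PGC-1αf/f arrays and 4223 to 5253 on nPGC-1α arrays. The share of gene spots well above background was 67.2% to 73.4% on nPGC-1α arrays and 74.5% to 81.5% on PGC-1αf/f ones. The noise estimate of the scanner software was 5.16 to 8.98 on PGC-1αf/f arrays and 10.7 to 20.9 on nPGC-1α arrays, with the highest value on nPGC-1α replicate 3. Probes of Y-linked genes were well above background on 4 of the 10 arrays, which were nPGC-1α replicates 1, 3 and 5 together with replicate 1 of PGC-1αf/f, although all mice are labelled male. Ppargc1a, the gene of PGC-1α, had a level of 2.20 ± 0.08 on PGC-1αf/f arrays and of 2.20 ± 0.11 on nPGC-1α arrays (SD, n = 5 each), with a difference of 0.00 ± 0.09 (SE; limma adjusted p = 0.990; two-sided exact permutation p = 0.952, where the smallest possible is 0.00794). Because no difference of the targeted gene was detected, nPGC-1α here means arrays labelled so, and whether its probe reads the transgene was not tested.

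The levels of the choroid plexus genes varied together over the arrays, and no difference between the groups passed the test. They were high on nPGC-1α replicate 3, next on PGC-1αf/f replicate 4 and then, for most of them, on PGC-1αf/f replicate 2, and low on the remaining arrays of both groups. Of 15 probes of these genes, 9 probes of 8 genes passed the filter on dim probes and were tested. Of these, 0 passed an adjusted p of 0.05 in limma, against 0.00255% (1 of 39142) of all probes tested, and 0 had an unadjusted p under 0.05, against 11.9% of all probes. An exact Mann-Whitney test gave 0 probes at an unadjusted p under 0.05 as well, and the groups overlapped for all 9 probes, whereas they did not overlap for 2.74% of 34000 probes with 10 values.

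**Figure D1:**
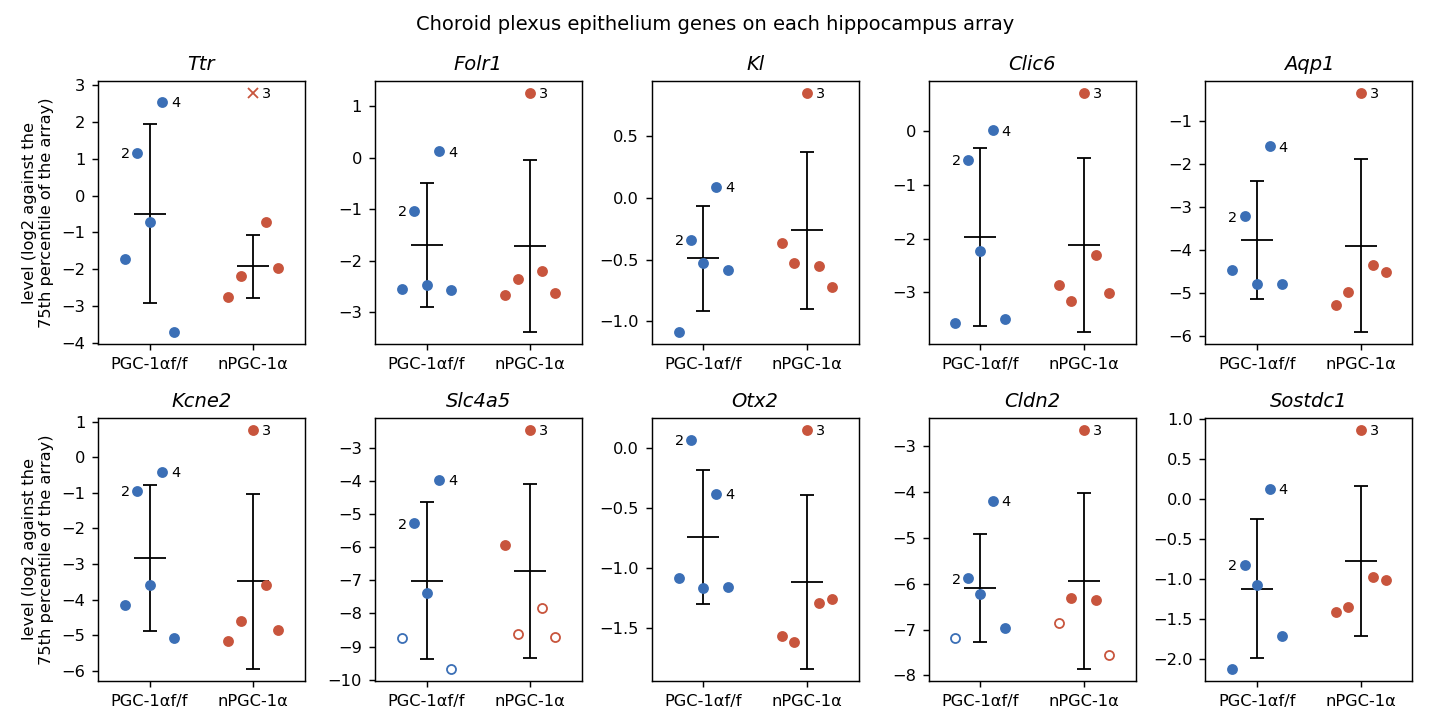
Level of each choroid plexus gene (log2 against the 75th percentile of the array) on 5 PGC-1αf/f arrays (blue) and 5 nPGC-1α arrays (red), by the probe that stands for the gene, with the mean and SD of each group in black. Filled points are well above background, open points are not, the cross is a spot marked as an outlier and left out of mean and SD, and figures beside points are replicate numbers. The highest nPGC-1α point is replicate 3 in each panel, and the 2 highest PGC-1αf/f points are replicates 4 and 2.

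Among the secreted proteins, Ttr encodes transthyretin, the carrier of thyroxine in cerebrospinal fluid and a hallmark product of the plexus. Its tested probe gave levels of -1.72, 1.16, -0.71, 2.54 and -3.71 on PGC-1αf/f replicates 1 to 5, and of -2.77, -2.19, -0.73 and -1.98 on nPGC-1α replicates 1, 2, 4 and 5. The spot of nPGC-1α replicate 3, at 2.78, was marked as an outlier by the scanner software and left out, although its level was the highest of the 10. The 4 nPGC-1α values used lay within the range of the PGC-1αf/f values, and the means were -0.49 ± 2.44 (SD, n = 5) and -1.92 ± 0.86 (SD, n = 4), a difference of -1.43 ± 1.09 (SE; limma adjusted p = 0.628). With marked spots kept the Ttr difference was -0.49, in the authors' log2 values it was -0.46, and it was -0.67 without PGC-1αf/f replicate 4 and -2.23 without PGC-1αf/f replicate 5. A second Ttr probe was marked on 4 arrays, nPGC-1α replicate 3 among them, and was not tested, and over the 6 arrays where both probes had a value their correlation was 0.993. Over these 6 arrays the first probe ranged over 6.25 and the second over 3.09 on the log2 scale, so the size of a Ttr deviation depends on the probe.

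Sostdc1, a secreted antagonist of BMP and Wnt signalling, had levels of -2.12, -0.82, -1.08, 0.13 and -1.71 on PGC-1αf/f replicates 1 to 5 and of -1.41, -1.34, 0.87, -0.97 and -1.0 on nPGC-1α replicates 1 to 5. The value of nPGC-1α replicate 3 lay above all others, and the other nPGC-1α values lay within the PGC-1αf/f range. The difference was 0.35 ± 0.49 (SE; limma adjusted p = 0.80).

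Of the membrane proteins, Folr1 encodes folate receptor alpha, which carries folate across the plexus into the fluid. Its tested probe read -2.54, -1.03, -2.47, 0.13 and -2.57 on PGC-1αf/f replicates 1 to 5 and -2.66, -2.35, 1.26, -2.19 and -2.63 on nPGC-1α replicates 1 to 5. On 7 arrays the level stayed between -2.66 and -2.19, and the other 3 stood above it by more than 1, so that nPGC-1α replicate 3 was 12.7-fold and PGC-1αf/f replicate 4 was 5.80-fold above the median of the 10 arrays. The difference between the groups was -0.02 ± 0.79 (SE; limma adjusted p = 0.995). A dimmer Folr1 probe, not tested and well above background on 7 arrays, correlated with the first at 0.950 over 10 arrays, but on PGC-1αf/f replicate 2 it lay at its median (a deviation of -0.01) where the first lay 1.38 above.

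Kl encodes klotho, a co-receptor for FGF23 that is also made in the hippocampus. Its levels were -1.09, -0.34, -0.53, 0.09 and -0.58 on PGC-1αf/f replicates 1 to 5 and -0.37, -0.52, 0.85, -0.55 and -0.73 on nPGC-1α replicates 1 to 5. The order of the 3 highest arrays was that of Folr1, but the whole range of Kl was 1.94 on the log2 scale, a 3.84-fold span, against 3.92 for Folr1. The difference was 0.23 ± 0.30 (SE; limma adjusted p = 0.784).

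Of the genes of ion and water transport, Kcne2, a beta subunit of potassium channels in the apical membrane, had levels of -4.16, -0.94, -3.59, -0.41 and -5.09 on PGC-1αf/f replicates 1 to 5 and of -5.18, -4.60, 0.78, -3.58 and -4.87 on nPGC-1α replicates 1 to 5. The lowest and highest of these arrays were 62-fold apart and carried the same group label. The difference was -0.65 ± 1.23 (SE; limma adjusted p = 0.854). Aqp1, the apical water channel, read -4.45, -3.21, -4.78, -1.59 and -4.79 on PGC-1αf/f replicates 1 to 5 and -5.27, -4.98, -0.35, -4.35 and -4.51 on nPGC-1α replicates 1 to 5. Its span was 30.4-fold, and the difference was -0.13 ± 0.94 (SE; limma adjusted p = 0.966). Clic6, a member of the chloride intracellular channel family, read -3.57, -0.53, -2.23, 0.02 and -3.51 on PGC-1αf/f replicates 1 to 5 and -2.86, -3.17, 0.72, -2.31 and -3.02 on nPGC-1α replicates 1 to 5. The difference of Clic6 was -0.16 ± 0.89 (SE; limma adjusted p = 0.953), and for each of these 3 genes the same 3 arrays stood highest.

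Slc4a5, an apical sodium bicarbonate cotransporter, was dim, and neither of its 2 probes was tested. The brighter one was well above background on 5 arrays, with levels of -5.27, -7.39 and -3.95 on PGC-1αf/f replicates 2, 3 and 4, and of -5.94 and -2.44 in turn on nPGC-1α replicates 1 and 3. The dimmer one was well above background only on nPGC-1α replicate 3 (-4.17) and PGC-1αf/f replicate 4 (-5.77). The value of -5.94 on nPGC-1α replicate 1 was the only one of the 10 genes to lie more than 1 above its own median on that array.

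Cldn2, the claudin that makes tight junctions permeable to cations and water, was well above background on 7 arrays by its brighter probe and on 0 arrays by its dimmer one, and was not tested. The brighter probe read -5.88, -6.22, -4.19 and -6.96 on PGC-1αf/f replicates 2 to 5 and -6.32, -2.63 and -6.35 on nPGC-1α replicates 2, 3 and 4. Its level on nPGC-1α replicate 3 was 13-fold above the median of the 10 arrays, and that on PGC-1αf/f replicate 4 was 4.41-fold above it.

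Otx2, the homeobox transcription factor, was the exception in the order of the arrays. Its brighter probe had levels of -1.08, 0.07, -1.17, -0.38 and -1.16 on PGC-1αf/f replicates 1 to 5 and of -1.57, -1.62, 0.16, -1.29 and -1.26 on nPGC-1α replicates 1 to 5. PGC-1αf/f replicate 2 came second, close to the highest array, and PGC-1αf/f replicate 4 came next. The dimmer probe, also tested, kept this order, with -3.26 on nPGC-1α replicate 3, -4.09 on PGC-1αf/f replicate 2 and -4.38 on PGC-1αf/f replicate 4. The differences of the groups were -0.37 ± 0.36 (SE; limma adjusted p = 0.697) for the brighter and -0.15 ± 0.60 (SE; limma adjusted p = 0.935) for the dimmer probe.

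To set the genes side by side, the deviation of each from its own median over the 10 arrays was taken. The mean deviation was 3.25 on nPGC-1α replicate 3, where Ttr had no value. Over the same 9 genes it was 2.21 on PGC-1αf/f replicate 4 and 1.34 on PGC-1αf/f replicate 2, and over the 7 genes well above background on all 10 arrays it was 2.91, 2.01 and 1.33 on these 3 arrays. The mean of all 10 genes lay between -0.80 and 0.16 on the other 7 arrays, which are PGC-1αf/f replicates 1, 3 and 5 and nPGC-1α replicates 1, 2, 4 and 5. All 9 genes with a value on nPGC-1α replicate 3 were highest there, against 8.86% of the 34000 tested probes with 10 values, and Ttr, marked there, was highest on PGC-1αf/f replicate 4. These 9 genes lay at least 1 above their medians on nPGC-1α replicate 3, against 1.21% of 29373 probes well above background on all 10 arrays. These shares stand beside counts that the choice of the genes had used, and nothing is read from them.

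**Figure D2:**
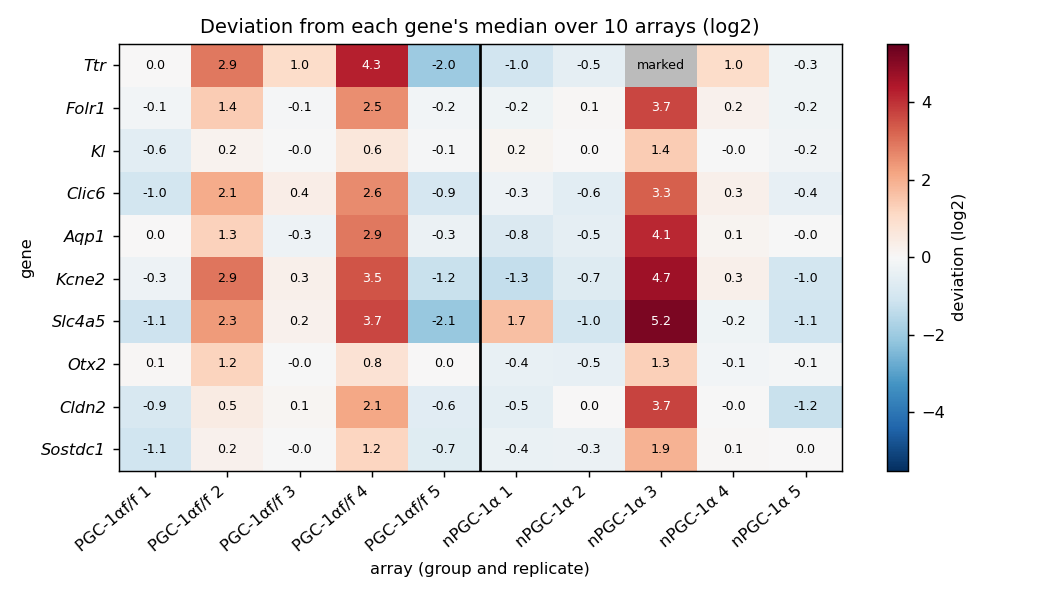
Deviation (log2) of each choroid plexus gene (rows) from its own median over the arrays (columns, by group and replicate), printed in each cell, with the marked Ttr spot in grey. The column of nPGC-1α replicate 3 holds the highest value of 9 genes, from 1.3 for Otx2 to 5.2 for Slc4a5, whose median is near background, and the columns of PGC-1αf/f replicates 4 and 2 are above 0 for all 10 genes.

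Over the 45 pairs of genes, Pearson's r ranged from 0.618 (Ttr and Kl, 9 arrays) to 0.987, with a median of 0.900. The points share their arrays, and leaving out nPGC-1α replicate 3 and PGC-1αf/f replicate 4, the 2 arrays farthest from the median, brought the median to 0.642 and the lowest pair, Kl and Aqp1, to 0.08. Against the mean deviation of the other 9 genes over the remaining 8 arrays, r was 0.981 for Clic6, 0.940 for Kcne2, 0.919 for Folr1 and 0.894 for Ttr, and was lowest for Kl, at 0.478. By rank over all arrays with a value, Spearman's rho with the other 9 genes was 0.855 for Kl and 0.927 for Clic6, and was lowest for Otx2, at 0.467. The standard deviation over the arrays was 0.52 (Kl) to 2.37 for the 10 genes, the highest being that of Slc4a5, which was not well above background on 5 arrays, with a median of 1.53, against a median of 0.25 and a 99th percentile of 0.99 for the 34000 probes.

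The ratios between the 3 high arrays were not the same for every gene. On the linear scale, the excess of PGC-1αf/f replicate 4 over the median was 0.284 to 0.574 of the excess of nPGC-1α replicate 3 over the 9 genes measured on both. The same ratio for PGC-1αf/f replicate 2 was 0.355 for Clic6 and 0.276 for Kcne2, but 0.0855 for Aqp1, 0.0850 for Kl, 0.0596 for Sostdc1 and 0.0310 for Cldn2. It was 0.903 for the brighter and 0.445 for the dimmer Otx2 probe, and 0.137 and -0.0008 in turn for those of Folr1. Each ratio rests on 1 spot per array, without an error estimate. Slc4a5 and Cldn2 were not well above background on every array. What part the probes had in these ratios was not tested. In log2 units, Kcne2, Ttr, Slc4a5 and Clic6 lay 2.06 to 2.94 above their medians on PGC-1αf/f replicate 2, whereas Cldn2, Sostdc1 and Kl lay 0.18 to 0.46 above. Of the 10 genes, only Otx2 was higher on PGC-1αf/f replicate 2 than on replicate 4, and 9 were lower.

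**Figure D3:**
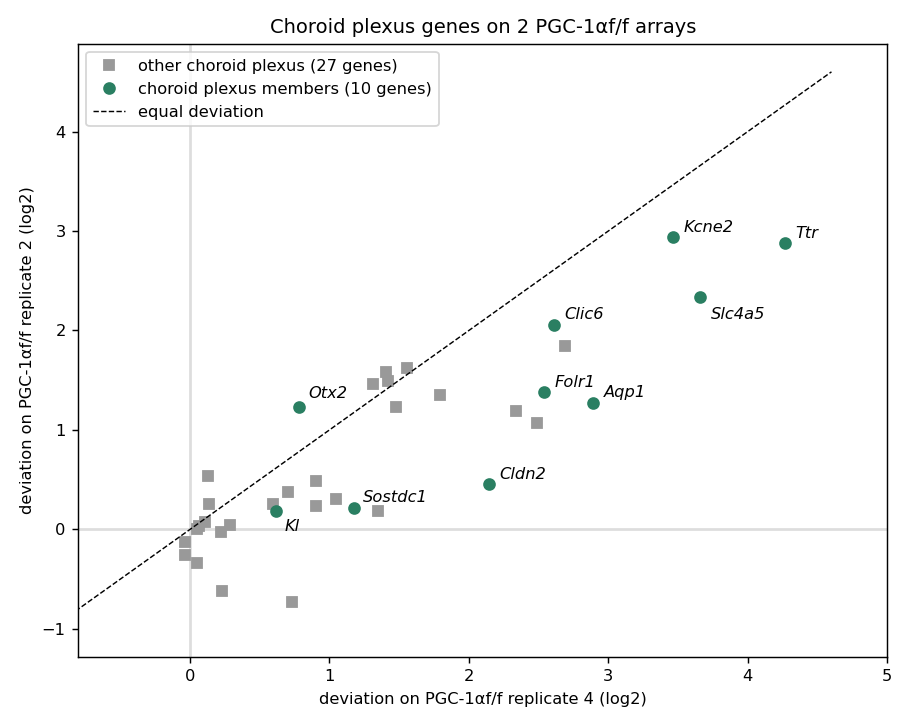
Deviation from the gene's own median (log2) on PGC-1αf/f replicate 2 against that on PGC-1αf/f replicate 4, for the 10 choroid plexus genes (green) and 27 other choroid plexus genes (grey). The dashed line marks equal deviations. Otx2 lies above the line, while Cldn2, at 2.14 and 0.46, lies far below it.

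PGC-1αf/f replicate 2 differed from the other arrays in genes of neighbouring tissue too. A list of 8 medial habenula genes had a median deviation of 1.79 on it, against -0.17 to 0.23 on the other 9 arrays, and 5 of the 8 (Tac2, Gpr151, Chrnb4, Chrna3 and Slc5a7) were highest there. Nwd2, Pou4f1 and Calb2 were not, with deviations there of 0.27, 0.18 and -0.33. Summed over the 7 of these 8 genes with a value on all 10 arrays, the linear levels were 4.19 to 7.25 on PGC-1αf/f arrays and 4.17 to 5.53 on nPGC-1α arrays. All sums of lists are over genes with no marked spot. Each sum is carried mostly by its brightest probes, although levels of different probes are not comparable. No amount of a tissue is read from the sums. Of the 8, 0 were below background on every array, but Chrnb4 and Chrna3 were well above it on 6 and 7 arrays. Chrna3 was not tested. A list of 10 ependymal genes, which mark the ciliated lining of the ventricles, was highest on PGC-1αf/f replicate 2 for 7 genes, with median deviations of 0.62 there, 0.39 on nPGC-1α replicate 3 and 0.06 on PGC-1αf/f replicate 4. The 10 ependymal genes were all well above background on each array, and their summed linear level was 4.96 to 11.7 on PGC-1αf/f arrays and 6.11 to 10.8 on nPGC-1α arrays. The share of all probes highest on PGC-1αf/f replicate 2 was not computed, so the counts of 5 habenula and 7 ependymal genes have no background rate. What part either tissue had in the Otx2 values was not tested.

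**Figure D4:**
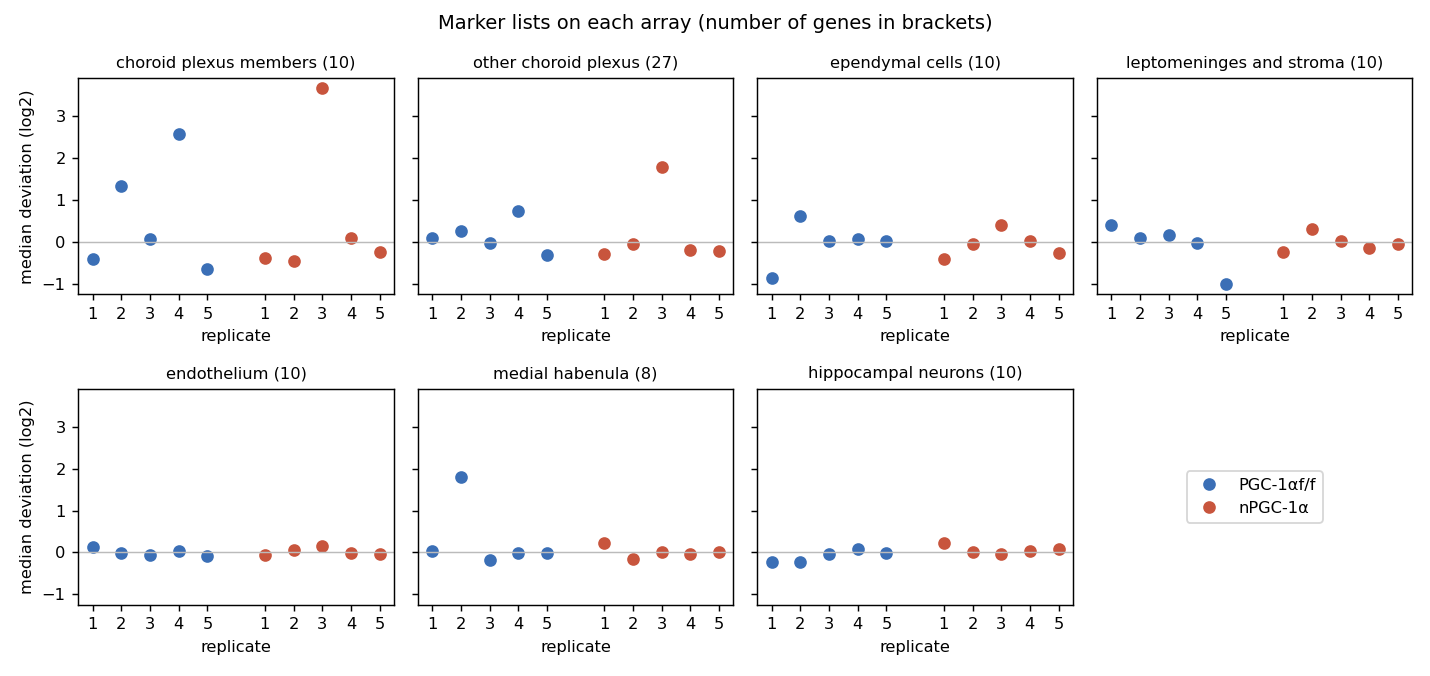
Median deviation (log2) of 7 marker lists on each array, by group (blue PGC-1αf/f, red nPGC-1α) and replicate number. Both choroid plexus lists peak on nPGC-1α replicate 3, at 3.67 and 1.79, and the medial habenula list peaks on PGC-1αf/f replicate 2, at 1.79.

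A further 28 genes of the choroid plexus epithelium were listed for comparison, of which 27 were named on the array and 26 tested. Of these 26, 0 passed the adjusted and 0 the unadjusted threshold of 0.05, and their median difference was -0.01, against -0.04 for all probes tested. On nPGC-1α replicate 3, 22 of the 27 were highest, against 8.86% of the 34000 tested probes with 10 values. By role these were 5 of 8 transport genes, 5 of 6 secreted proteins and all 5 membrane proteins. The rest were 4 of 5 junction and cytoskeleton genes, the 2 transcription factors (Lmx1a and Msx1) and 1 collagen. Of the 22 genes well above background on all arrays, 12 lay at least 1 above their median on nPGC-1α replicate 3, against 1.21% of 29373 probes. A correlation of at least 0.8 with the mean deviation of the 10 genes was seen for 11 of them, against 0.395% of these probes. Without nPGC-1α replicate 3 and PGC-1αf/f replicate 4, the correlations of these 11 genes were 0.365 to 0.992, with no share of all probes beside them. The mean deviation comes from genes chosen by their co-variation over these arrays, and this list too was written with earlier results known. The counts and shares are therefore a description and no separate support. The summed linear level of 26 of these genes, without Enpp2, which was marked on some arrays, was 15.2 to 25.8 on PGC-1αf/f arrays and 17.0 to 35.6 on nPGC-1α arrays.

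The spread within this second list was wide. Over the median of the other 9 arrays, the largest deviations on nPGC-1α replicate 3 were those of Steap1, a membrane protein (4.31), Tmem72 (3.77, not tested and well above background on 6 arrays), Wfdc2, a secreted protease inhibitor (3.38), and Trpm3, a cation channel (3.26). The smallest were those of Slc29a4, a monoamine transporter (-0.05), Slc12a2, the sodium, potassium and chloride cotransporter (0.08), Cgnl1, a junction protein (0.09), and Tcn2, the carrier of vitamin B12 (0.22). Kcnj13, the potassium channel Kir7.1 of the apical membrane, lay 1.90 above its median on nPGC-1α replicate 3, 1.35 on PGC-1αf/f replicate 4 and 0.18 on PGC-1αf/f replicate 2. Its position on PGC-1αf/f replicate 2 was thus like that of Cldn2 and Kl rather than that of Kcne2, whereas Trpm3, Krt18, Calml4 and Lmx1a, with 1.46 to 1.62, were slightly higher on replicate 2 than on replicate 4. Of the 27 genes, 6 were higher on replicate 2 and 21 on replicate 4.

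The remaining lists of other cell types had median deviations of -0.03 to 0.14 on nPGC-1α replicate 3, where 8.86% of the 34000 tested probes with 10 values were highest. For leptomeninges and stroma, 3 of 10 genes were highest on nPGC-1α replicate 3, the median deviation there was 0.01, and the summed linear level of 9 genes was 10.7 to 25.3 on PGC-1αf/f arrays and 16.0 to 22.5 on nPGC-1α arrays. Col1a1, the only gene of these 10 at least 1 above its median on nPGC-1α replicate 3, lay 1.20 above it. For endothelium, 2 of 10 genes were highest there, with a median deviation of 0.14 and, over 8 genes, sums of 18.1 to 22 on PGC-1αf/f and 18.6 to 21.1 on nPGC-1α arrays. For hippocampal neurons, 0 of 10 were highest there, with a median deviation of -0.03 and, over 6 genes, sums of 5.91 to 8.40 and 7.34 to 9.26. In these lists 0 genes were below background on all arrays, and 0 passed the adjusted or the unadjusted threshold between the groups. In bulk tissue fewer cells of a type and less RNA per cell cannot be told apart.

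Genes outside both choroid plexus lists were ranked by their r over the 10 arrays with the mean deviation of the choroid plexus genes. Only genes with a probe well above background on all 10 arrays entered. The 10 most alike were Defb11, Frmpd1os, Cox8b, Pla2g5, Hemk1, Adamtsl3, Rdh5, Ins1, Smim22 and Krt8. The highest r was 0.982, for Defb11, a beta defensin, which was -0.23 on nPGC-1α replicate 3, -2.35 on PGC-1αf/f replicate 4 and -3.26 on PGC-1αf/f replicate 2, with a median of -5.14. The lowest was 0.927, for the epithelial keratin Krt8. Without the 2 arrays farthest from the median r was 0.711 for Rdh5, a retinol dehydrogenase, and 0.837 to 0.983 for the other 9 genes. Ins1, an insulin gene, had r = 0.930 and a level of -1.87 on nPGC-1α replicate 3 against a median of -4.53. It shares most of its sequence with Ins2, and its probe was not checked against that gene. Between the groups these 10 genes had adjusted p-values of 0.838 to 0.998 in limma. The genes were chosen by their likeness to the mean deviation, so these p-values are no separate result.

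The group difference of the choroid plexus genes turned on single arrays. Of the 8 genes tested, 6 had lower and 2 (Kl and Sostdc1) higher means on nPGC-1α arrays, and the median difference was -0.15. Without nPGC-1α replicate 3 it was -0.82, and without PGC-1αf/f replicate 4 it was 0.35. It was above 0 also without PGC-1αf/f replicate 2 (0.08) or nPGC-1α replicates 1 (0.12), 2 (0.12) or 5 (0.04). Without both nPGC-1α replicate 3 and PGC-1αf/f replicate 4 it was -0.42. With nPGC-1α replicate 3 left out, the difference of Kcne2 was -1.72 ± 0.91 (SE; limma adjusted p = 0.683) and that of the brighter Otx2 probe -0.69 ± 0.26 (SE; limma adjusted p = 0.519), the latter with an unadjusted p of 0.0234 in limma.

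**Figure D5:**
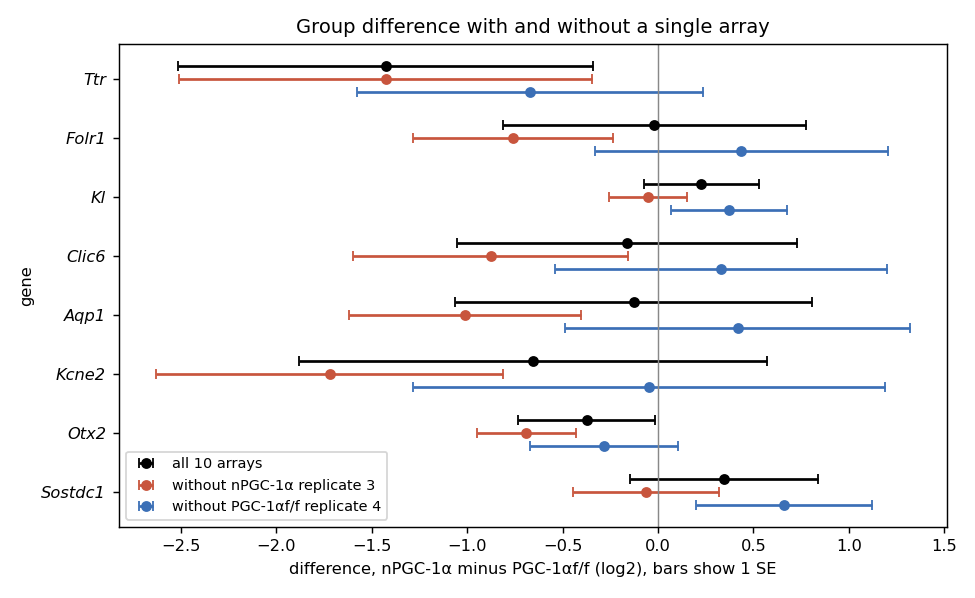
Difference in level (log2, nPGC-1α minus PGC-1αf/f, bars 1 SE) of the 8 choroid plexus genes tested, with all 10 arrays (black), without nPGC-1α replicate 3 (red) and without PGC-1αf/f replicate 4 (blue). Folr1, for example, moves from -0.02 to -0.76 and to 0.44. The Ttr estimate is the same with and without nPGC-1α replicate 3, where its spot was marked.

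Within the 8 arrays of slide 1 the median difference was -0.28, and slide 2 held 1 array of each group. Among the 4 arrays with Y-linked signal, 1 of PGC-1αf/f and 3 of nPGC-1α, the median difference was 1.07, and among the 6 arrays without it, 4 of PGC-1αf/f and 2 of nPGC-1α, it was -0.94. nPGC-1α replicate 3 belongs to the first set and PGC-1αf/f replicates 2 and 4 to the second, and with Y-linked signal as a block the difference was -0.19. nPGC-1α replicate 3 also had the highest noise estimate (20.9) and the lowest share of spots well above background (67.2%), while PGC-1αf/f replicate 4 had the lowest noise estimate (5.16) and 79.9% of spots well above background. The part of these measures in the choroid plexus values was not tested.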

How the data were processed

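The authors hybridised Cy3-labelled cDNA and deposited 1 scanner file per array. Per the file headers these were written by Feature Extraction 11.5.1.1, and they hold a fluorescence intensity per spot, background-subtracted but not normalised between arrays. The authors also deposited their own log2 values of these arrays, for 41606 probes, which correlated with the levels used here at 0.9994 to 1.000 across probes and served as an alternative.

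Control spots and outlier-marked spots were left out, and spots of 1 probe were averaged on the log2 scale. Of 56605 probes, 33762 (59.6%) were named by accession through a RefSeq table of GRCm38.p6. The array was designed on another build, so probes have no coordinates here. Probes well above background on all unmarked arrays of at least 1 group, with at least 3 values per group, were kept, which left 39142. The tested probe with the highest mean stood for a gene. Groups came from the sample titles. Differences subtract the PGC-1αf/f mean from the nPGC-1α mean and were tested two-sided with limma 3.58.1 (lmFit, eBayes; R 4.3.3), without covariates, with Benjamini-Hochberg adjustment over all probes kept. On simulated data for this comparison, 200 of 39142 probes were changed, drawn at random from all probes kept. The test recovered 67% of changes of 1 and 96% of changes of 2 on the log2 scale. The choroid plexus genes had a median SD over the arrays of 1.53, against 0.25 for the 34000 probes with 10 values. The recovered shares therefore do not hold for these genes. Python 3.11.15 with pandas 2.3.3 was used to read the arrays. The number of arrays limits the precision.

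The genes, the lists and the tests were chosen with earlier results of these data known. The text names all 10 genes with every probe, Ppargc1a, the 4 other choroid plexus genes with the largest and the 4 with the smallest deviation on nPGC-1α replicate 3, and the 10 genes most like the mean deviation. Kcnj13, Lmx1a, Msx1, Krt18, Calml4 and the habenula genes named as highest on a single array were singled out after their values were seen. The alternatives were other scalings, background corrections and filters, blocks, subsets of arrays, each array left out, gene means and an exact Mann-Whitney test.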

Additional observations from a re-analysis of the deposited data

Results flagged for a closer look

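Within each group of 5 arrays, the gap between the highest or lowest array and its nearest neighbour was set against the spread from lowest to highest, for 40 sets of 5 or 4 values. It was exceptionally wide in 13, where chance gives about 1 in 20 for a single set. The sets share arrays and the choroid plexus genes were chosen by their co-variation over these arrays, so the number 13 is no test.

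A single gene's level had such a gap for 8 genes, each time on nPGC-1α replicate 3: Folr1 (1.26, others at most -2.19), Kl (0.85, others at most -0.37), Clic6 (0.72, others at most -2.31), Aqp1 (-0.35, others at most -4.35), Kcne2 (0.78, others at most -3.58), Otx2 (0.16, others at most -1.26), Cldn2 (-2.63, others at most -6.32) and Sostdc1 (0.87, others at most -0.97). The mean deviation on that array, over the 9 genes with a value, was 3.25, against at most 0.16 on the other nPGC-1α arrays, and the median deviation of the other choroid plexus list was 1.79, against at most -0.05. Its noise estimate was 20.9, against 10.7 to 13.5.

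No choroid plexus gene had such a gap among the PGC-1αf/f arrays, where replicates 4 and 2 were both high. PGC-1αf/f replicate 1 had a noise estimate of 8.98, against 5.16 to 6.14, and PGC-1αf/f replicate 2 a median deviation of medial habenula genes of 1.79, against at most 0.04.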

How the results depend on the processing

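Under the 25 alternatives, 0 choroid plexus probes passed the adjusted threshold. The count over all probes was 1 (lower on nPGC-1α arrays). It was 0 with normexp and quantile normalisation, with the stricter filter, with slide, Y-linked signal or replicate number as a block, and in the exact Mann-Whitney test. It was 4593 of 56585 probes with no filter on dim probes, 4 and 2 on the arrays with and without Y-linked signal, 3 without both arrays that stand apart, and 0 to 3 with 1 array left out (0 without PGC-1αf/f replicates 1, 2 or 3 or nPGC-1α replicates 4 or 5, and 3 without nPGC-1α replicates 2 or 3). The cause was not tested.

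The sign of small differences moved, with adjusted p from 0.317 to 1.00 over the choroid plexus genes. On arrays with Y-linked signal it turned to 1.08 for Aqp1, 1.85 for Clic6, 1.20 for Folr1, 1.07 for Kcne2 and 0.20 for Otx2. On arrays without it, it was -0.20 for Kl and -0.29 for Sostdc1. Folr1 was 0.0036 in the authors' log2 values, 0.0787 with quantile normalisation and 0.034 with normexp, where Aqp1 was 0.0037. With 1 array left out the ranges were -1.01 to 0.42 for Aqp1, -0.88 to 0.33 for Clic6, -0.76 to 0.44 for Folr1, -2.23 to -0.67 for Ttr, -1.72 to -0.05 for Kcne2, -0.0516 to 0.37 for Kl and -0.064 to 0.66 for Sostdc1. Ppargc1a was -0.0345 with Y-linked signal as a block, -0.12 on arrays with that signal, -0.0368 on slide 1 and -0.0243 to 0.0402 with 1 array left out.

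The choroid plexus genes with a value on nPGC-1α replicate 3 were highest there under all alternatives that hold it, 10 of 10 with marked spots kept (although the second Ttr probe then read 4.02 on PGC-1αf/f replicate 4 and 3.71 there) and 7 of 7 with the stricter filter. Their median correlation was 0.642 without both arrays that stand apart and 0.8214 to 0.9199 with 1 array left out, lowest without nPGC-1α replicate 3. With fewer than 6 arrays it was not computed.

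Same-numbered arrays correlated at 0.0776 to 0.356 in their deviations, and 5 of 10 arrays correlated best with their own number. Not every pair exceeded 0.1, and the numbers were not taken to pair the arrays. On slide 1 same-numbered arrays also shared a column, and PGC-1αf/f arrays lay in row 1 and nPGC-1α arrays in row 2. Group and row cannot be told apart there. With replicate number as a block the median difference was -0.15, 0 choroid plexus probes passed, and the Ppargc1a difference was 0.0035. Slc4a5 and Cldn2, well above background on 5 and 7 arrays by their brighter probes, are limited by signal.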
